A study of Mus musculus with 8 samples.

Results

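The genes described here encode the subunits, regulators and assembly factors of the proteasome in mouse embryonic stem cells. Members were all non-control probes whose RefSeq accession maps to a gene symbol beginning with Psm, then a letter from a to g, then a number. That pattern found 50 of the 20972 gene symbols on the arrays, and 47 of the 50 could be tested. Of the 50, 48 are subunits, activators, an inhibitor or assembly factors, whereas Psmc3ip, a meiotic recombination factor, and Psme3ip1, a protein that binds the activator Psme3, share only the pattern. All cells were grown with the self-renewal cytokine LIF and with 250 nM PD173074, an inhibitor of FGF receptors. The groups were untreated cells (0 h, 3 arrays, whose titles, unlike their treatment label, also name actinomycin D), vehicle cells (5 µM actinomycin D, a blocker of transcription, followed after 30 min by 4 h of ethanol, 2 arrays) and 4OHT cells (the same with 250 nM 4OHT in place of ethanol, 3 arrays). The labels give neither the target of 4OHT nor a strain or clone, and the series title names Erk and mRNA degradation as its subject. The design text speaks of 3 biological replicates per condition, of which 2 vehicle arrays are used here.

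The proteasome degrades proteins tagged with ubiquitin. Its core particle is a barrel of outer alpha rings, which gate the entrance, and inner beta rings, which hold the proteolytic sites. A regulatory particle binds the barrel, recognises the ubiquitin tag, removes it and threads the substrate inward with a ring of ATPases, while other activators can bind in its place. Dedicated chaperones build the core and the base of the regulatory particle and are absent from the finished complex. Pluripotent cells are known for high proteasome activity. With transcription blocked, an mRNA is no longer renewed and its amount falls as it decays, but an array scaled to its own signals shows this only relative to the other RNA.

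Values are therefore given on a pair of scales. The first is log2 of the processed signal minus the log2 of the array's 75th percentile, called the percentile scale below. The second, the spike-in scale, subtracts the mean of the array's E1A control probes instead, a kind of probe that reads transcripts spiked into the sample, although no label mentions a spike-in step. Untreated arrays had a 75th percentile of 333, 457 and 405, vehicle arrays of 166 and 205 and 4OHT arrays of 209, 180 and 182, and 53.0% to 75.7% of spots were well above background. The median over all 28493 features tested moved between the scales from 0.40 to −0.88 for vehicle against untreated, from −0.05 to −0.36 for 4OHT against vehicle and from 0.31 to −1.27 for 4OHT against untreated. Untreated and vehicle arrays came from separate rows of 1 slide, and the row cannot be told apart from the treatment. Vehicle cells differ from untreated ones in actinomycin D, ethanol and time in culture, and these cannot be told apart either. The 4OHT arrays were on another slide, so slide and treatment cannot be told apart in either comparison with 4OHT. Adjusted p-values come from limma with Benjamini-Hochberg adjustment over all features, called under 0.05, and errors of differences are standard errors of that fit. In these bulk samples, fewer cells of a type and less RNA per cell cannot be told apart.

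On the percentile scale most proteasome genes were higher after actinomycin D and vehicle than in untreated cells, 37 of 47 (78.7%, against 41.5% of all features), and 1, the core assembly chaperone Psmg3, was lower (15.9% of all features). Their median difference was 0.89 (1.85-fold), beside 0.40 for all features. Of the 22970 features well above background on all 8 arrays, 11929 were higher, with a median of 0.48. With normexp background correction 80.9% of members and 68.2% of all features were higher, and 32 of 47 members lay above the median of all features. On the spike-in scale 0 members were higher by limma (0.112% of all features; 0 at an unadjusted p under 0.05), 12 were lower (25.5%, against 65% of all features), and the median was −0.39, beside −0.88. The direction of the group therefore depends on the scale. The scales differ by a constant per array, so the 41 of 47 differences that lay above the median of all features are the same count on both by construction. Quantile normalization, which is not such a constant, put 21 of 47 above that median, with a members' median of 0.14 beside 0.21 for all features and 31.9% of members higher beside 26.1% of all features. The members' excess over all features was thus not seen in the median there. Arrays of the groups did not overlap for 41 members that were higher on the percentile scale (87.2%, against 51% of all features) and for 1 that was lower, Psmg3 (20.5% of all features). On the spike-in scale they did not overlap for 31 members that were lower (66%) and 0 that were higher. The share of all features for that count is not given here. The standard error of a member was 0.22 in the median there, beside 0.12 on the percentile scale, so not passing does not show that a gene was unchanged.

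Most members changed by similar amounts, though the spread of all features was not set beside theirs. The median difference of a member from its untreated mean on the percentile scale was 0.87 and 0.95 with vehicle and 0.82, 0.86 and 0.85 with 4OHT. On the spike-in scale it was −0.47 and −0.27 with vehicle and −0.48, −0.83 and −0.92 with 4OHT. The 13 tested constitutive core subunits had a median difference of 0.94 between vehicle and untreated on the percentile scale, and the 17 regulatory particle subunits had 0.87. Within an array the median change of the core minus that of the regulatory particle lay between −0.06 and 0.04 on the percentile scale. The untreated arrays are set against their own mean, so only the treated ones bear on this. On each treated array the medians of core and regulatory genes stayed level with each other. The 4 core assembly chaperones among the members had a median of 0.29, beside 0.40 for all features, with 1 of 4 called higher. The difference between classes was not tested.

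**Figure D1:**
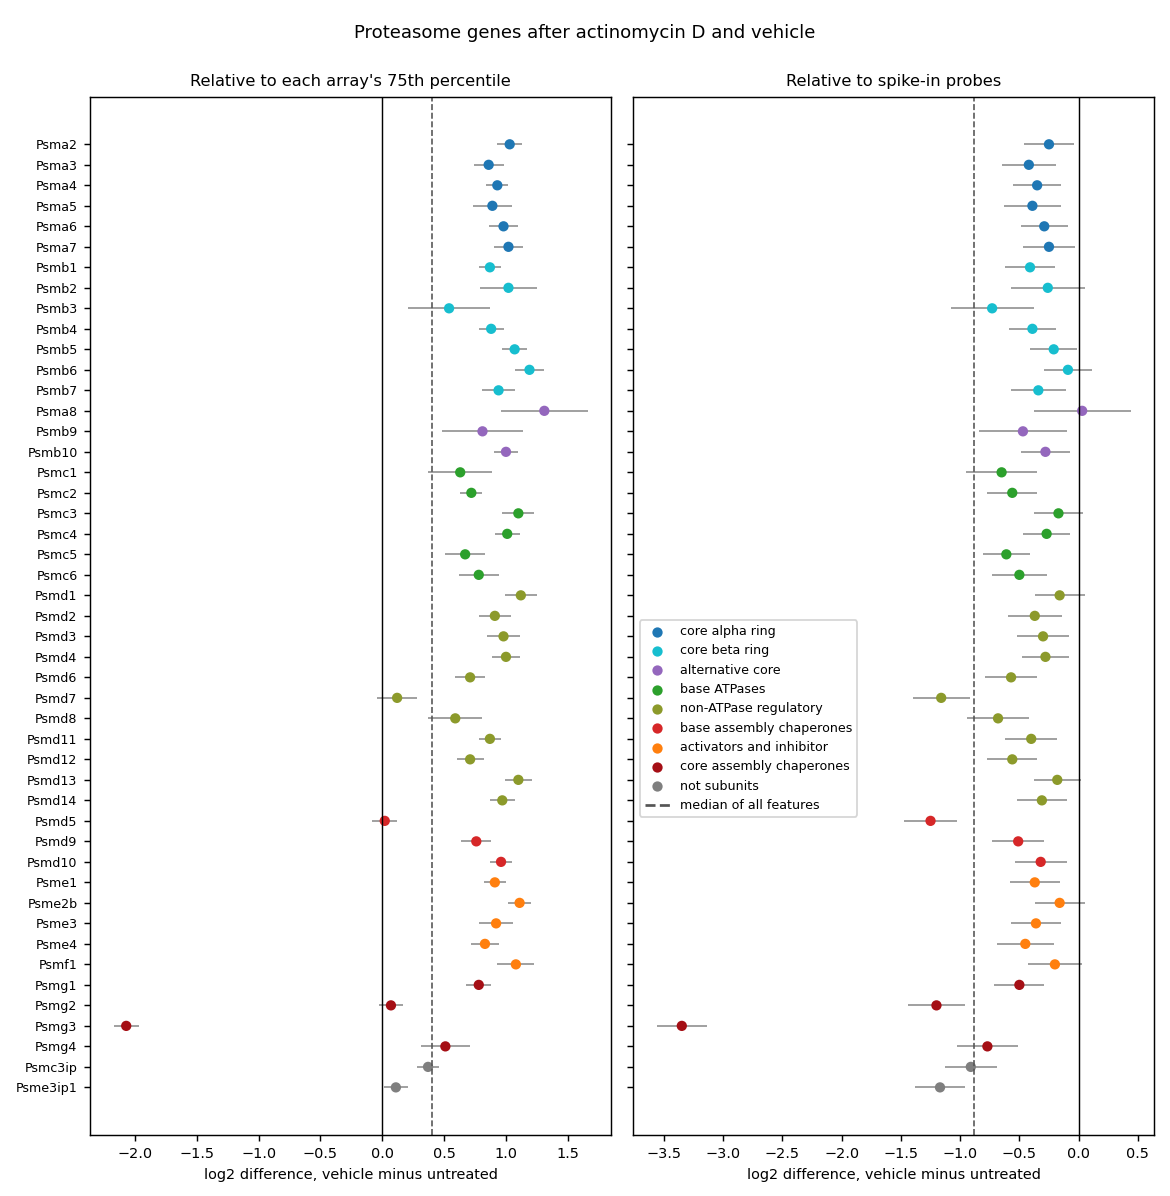
The log2 difference of vehicle minus untreated is plotted for each of the 47 tested proteasome genes, relative to the 75th percentile (left) and to the spike-in probes (right), with standard errors of the fit as bars, colours for the role of the gene and a dashed line at the median of all features (0.40 and −0.88). Most genes lie close together, near 0.89 on the left and −0.39 on the right, while Psmg3 lies at −2.07 and −3.35, and Psmg2, Psmd5 and Psmd7 lie below the dashed line on both sides.

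All 6 tested alpha ring genes rose on the percentile scale, with a median difference of 0.95, while on the spike-in scale their median was −0.32 and 0 of 6 passed the test. Psma2 was the highest of the ring. Its log2 levels on the percentile scale were 7.80, 7.79 and 7.59 untreated, 8.82 and 8.69 with vehicle, and 8.58, 8.58 and 8.58 with 4OHT. Both treated groups lay above every untreated array, and the rise with vehicle was 1.03 ± 0.10 (adjusted p = 0.00033), against −0.25 on the spike-in scale and −0.03 with quantile normalization. Psma3 was the lowest of the ring, at 7.11, 6.90 and 7.11 untreated, 7.76 and 8.04 with vehicle, and 7.80, 7.84 and 7.87 with 4OHT. Here too the untreated and treated groups did not overlap, and the rise was 0.86 ± 0.12 (adjusted p = 0.0011; −0.42 on the spike-in scale, −0.07 with quantile normalization). Psma1 was not tested because its spot on untreated replicate 1 was marked as an outlier. Its other levels were 5.86 and 6.0 untreated, 6.73 and 6.98 with vehicle and 6.81, 7.04 and 7.02 with 4OHT, so both untreated values lay below all treated ones.

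In the constitutive beta ring 6 of 7 genes rose on the percentile scale (median 0.94), and 0 of 7 passed on the spike-in scale (median −0.34). The catalytic subunits are encoded by Psmb5, which carries the chymotrypsin-like site, Psmb6, with the caspase-like site, and Psmb7, with the trypsin-like site, and all 3 rose, by 1.07 ± 0.10, 1.19 ± 0.12 and 0.94 ± 0.13 (−0.21, −0.09 and −0.34 on the spike-in scale). Psmb6 was the highest of the ring, though with quantile normalization its difference was 0.14 (adjusted p = 0.2). Its levels were 7.70, 7.47 and 7.39 untreated, 8.74 and 8.68 with vehicle and 8.50, 8.67 and 8.68 with 4OHT, with no overlap between untreated and treated arrays. Before any scaling its processed signals were 69010, 81160 and 67950 untreated, 71350 and 83840 with vehicle and 75600, 73190 and 74690 with 4OHT. Every treated signal other than that of vehicle replicate 2, which was higher, lay within the untreated range, on arrays whose 75th percentile was lower.

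Psmb3, a non-catalytic beta subunit, was the one that did not pass (0.54 ± 0.33, adjusted p = 0.2; −0.73 on the spike-in scale). Its levels were 7.25, 7.10 and 7.06 untreated, 7.03 and 8.32 with vehicle and 8.09, 8.18 and 8.19 with 4OHT. Vehicle replicate 1 lay with the untreated arrays and vehicle replicate 2 with the 4OHT arrays. Without vehicle replicate 1 the difference was 1.19 (adjusted p = 0.002), and the lone vehicle array was then assumed to vary like the other groups.

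The promoters of Psmb6 and Psmb5 are shown because their windows hold matches to the core of the antioxidant response element. Through such elements the transcription factors Nfe2l1 and Nfe2l2 raise proteasome genes. Both windows are RefSeq sequences of assembly GRCm38.p6, 5′ to 3′ on the gene's strand. They run from 250 bases before the start of the gene to 50 after it. The Psmb6 window is chr11:70525107-70525406 (plus strand) and the Psmb5 window is chr14:54617946-54618245 (minus strand). Capitals mark matches to TGACNNNGC, which lie before the start in both, and in Psmb5 also to the longer form TGANTCAGC. That longer match begins at position 42 after the start of the gene, at the end of the window.
Psmb6: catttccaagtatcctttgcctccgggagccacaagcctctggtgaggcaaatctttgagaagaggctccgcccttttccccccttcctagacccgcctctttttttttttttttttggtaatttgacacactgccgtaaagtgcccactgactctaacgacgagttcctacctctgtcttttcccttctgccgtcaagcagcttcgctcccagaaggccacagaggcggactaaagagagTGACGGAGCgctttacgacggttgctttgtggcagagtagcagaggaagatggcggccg
Psmb5: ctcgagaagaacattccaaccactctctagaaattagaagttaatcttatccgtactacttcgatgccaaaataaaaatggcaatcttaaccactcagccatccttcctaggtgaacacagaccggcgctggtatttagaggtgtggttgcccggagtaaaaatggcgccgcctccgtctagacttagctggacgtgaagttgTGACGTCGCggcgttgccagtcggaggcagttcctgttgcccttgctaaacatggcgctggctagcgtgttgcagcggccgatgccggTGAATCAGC

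Of 45 such windows of 42 members, 6 (13.3%) held TGACNNNGC on either strand, beside 12.4% of all 32851 windows, and Psmb5 was the only member with TGANTCAGC (1.19% of all windows). The matches to TGACNNNGC were in Psmb5, Psmb6, Psmc6, Psmd9, Psmd12 and Psme4. The CCAAT box was in 16 windows (35.6%, beside 37.4%) and TATAAA in 4 (8.89%, beside 13.6%). CCGGAAG, a core recognised by ETS factors, which include targets of Erk, was in 17 windows of 16 genes (37.8%, beside 8.86%). A match is a description of the letters in the window and was not tested against the array values.

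Of the 5 alternative core genes, 3 could be tested and 2 rose on the percentile scale (median 1.0; −0.28 on the spike-in scale, 0 of 3 passing). Psmb10, an immunoproteasome subunit, had levels of 4.61, 4.74 and 4.74 untreated, 5.67 and 5.72 with vehicle and 5.57, 5.61 and 5.71 with 4OHT. The treated arrays all lay above the untreated ones, a rise of 1.0 ± 0.10 with vehicle (adjusted p = 0.00028; −0.28 on the spike-in scale). Psmb9, another immunoproteasome subunit, was at −1.65, −1.43 and −2.11 untreated, −0.58 and −1.27 with vehicle and −0.56, −1.36 and −1.21 with 4OHT. Neither treated group overlapped the untreated one, but the spread was wide and the difference of 0.81 ± 0.33 did not pass (adjusted p = 0.071; −0.47 on the spike-in scale).

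Psma8, the testis form of an alpha subunit, was well above background on 7 of 8 arrays, whereas the other 46 tested members were so on all 8. Its levels were −4.57, −3.95 and −4.33 untreated, −2.74 and −3.21 with vehicle and −3.01, −3.63 and −4.16 with 4OHT. On the percentile scale vehicle arrays lay above untreated ones (1.31 ± 0.35, adjusted p = 0.017, and 0.03 on the spike-in scale). The 4OHT arrays overlapped both other groups. Before any scaling its processed signals were 14.05, 29.63 and 20.11 untreated, 24.9 and 22.14 with vehicle and 26.01, 14.61 and 10.19 with 4OHT. Both vehicle signals lay within the untreated range, so the rise was not seen in the unscaled signals. Leaving out untreated replicate 1 (1.16, adjusted p = 0.051) or vehicle replicate 1 (1.07, adjusted p = 0.098) ended the call. Psmb8, an immunoproteasome subunit, was well above background on 4 of 8 arrays and Psmb11, the thymus-specific beta subunit, on 1 of 8. Neither was so on every array of a group, so both were left out of the test.

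The ATPases of the base rose in 5 of 6 cases on the percentile scale, with a median of 0.75, and on the spike-in scale 2 of 6 (Psmc2 and Psmc5) were lower, with a median of −0.53. Psmc3 was the highest, with levels of 7.62, 7.36 and 7.21 untreated, 8.49 and 8.51 with vehicle and 8.20, 8.30 and 8.34 with 4OHT. No treated array overlapped the untreated ones, and the rise was 1.1 ± 0.13 (adjusted p = 0.00054, and −0.17 on the spike-in scale). With quantile normalization the difference of Psmc3 was 0.07 (adjusted p = 0.53). Psmc1 was the lowest and did not pass (0.63 ± 0.26, adjusted p = 0.074; −0.65 on the spike-in scale). Its levels were 6.75, 6.53 and 6.59 untreated, 6.77 and 7.73 with vehicle and 7.52, 7.70 and 7.66 with 4OHT, and vehicle replicate 1 again lay beside the untreated arrays. A less bright probe of Psmc1 gave 1.04, the mean of both probes 0.84 (adjusted p = 0.002), and the brighter probe without vehicle replicate 1 gave 1.11 (adjusted p = 0.0029).

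Of the 11 non-ATPase subunits of the regulatory particle, which hold the ubiquitin receptors and the deubiquitinase Psmd14, 9 rose on the percentile scale (median 0.91), and 4 were lower on the spike-in scale (median −0.37). Psmd1, the scaffold subunit, was the highest, at 6.56, 6.28 and 6.23 untreated, 7.39 and 7.57 with vehicle and 7.17, 7.27 and 7.35 with 4OHT. Untreated and treated arrays were apart by 1.12 ± 0.13 with vehicle (adjusted p = 0.00054, and −0.16 on the spike-in scale). With quantile normalization the difference of Psmd1 was 0.24 (adjusted p = 0.091). Psmd7, the inactive partner of Psmd14, was the lowest, at 5.11, 4.87 and 5.0 untreated, 4.87 and 5.35 with vehicle and 4.96, 5.04 and 5.09 with 4OHT. All 3 groups overlapped, and its difference of 0.12 ± 0.16 did not pass (adjusted p = 0.54), whereas it was lower by 1.16 on the spike-in scale (adjusted p = 0.0026) and stood at −0.46 with quantile normalization. Psmd8, named after its values were seen, was the other subunit that did not pass, with 5.62 and 4.80 on the vehicle arrays, between 4.57 and 4.70 untreated and between 5.62 and 5.63 with 4OHT (0.59 ± 0.22, adjusted p = 0.052).

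Psmb3, Psmc1 and Psmd8 are 3 of the 4 members whose vehicle arrays differed by more than 0.5, the fourth being Psmb9. For Psmb3 and Psmc1 vehicle replicate 1 was the low array and for Psmd8 it was vehicle replicate 2, so no single vehicle array was low throughout. In Psmc1 this held for the brighter probe only. The less bright probe read 6.41 and 6.19 on vehicle replicates 1 and 2, above 5.33, 5.21 and 5.22 untreated. The median range over the arrays of a group was 0.20 untreated, 0.13 with vehicle and 0.14 with 4OHT. The probe of Psme1, printed 10 times on each array, gave the error within an array, a coefficient of variation of 2.79% to 7.52% between spots.

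The 3 chaperones of the base parted. Psmd10 (gankyrin) was at 1.29, 1.18 and 1.38 untreated, 2.24 and 2.25 with vehicle and 2.26, 2.24 and 2.25 with 4OHT, a rise of 0.96 ± 0.09 with vehicle (adjusted p = 0.00031; −0.32 on the spike-in scale). Psmd9 was at 1.99, 1.98 and 2.1 untreated, 2.62 and 2.95 with vehicle and 2.68, 2.77 and 2.83 with 4OHT, a rise of 0.76 ± 0.12 (adjusted p = 0.0018; −0.51 on the spike-in scale). Less bright probes gave 0.71 for Psmd10 and 0.44 for Psmd9. For both genes, every treated array lay above every untreated one on the percentile scale. Psmd5, which holds a base intermediate before its docking, was at 3.57, 3.55 and 3.54 untreated, 3.64 and 3.51 with vehicle and 3.32, 3.33 and 3.18 with 4OHT. Its vehicle arrays enclosed the untreated ones (0.02 ± 0.10, adjusted p = 0.84; −0.25 with normexp background correction, −0.31 with quantile normalization), and on the spike-in scale it was lower by 1.25 (adjusted p = 0.001).

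The 4 activators and the inhibitor Psmf1 all rose on the percentile scale, with a median of 0.92, and 0 of 5 passed on the spike-in scale (median −0.36). Psme1, a subunit of the interferon-inducible cap, was at 4.12, 4.06 and 4.12 untreated, 4.99 and 5.03 with vehicle and 5.03, 5.08 and 5.12 with 4OHT (0.91 ± 0.09 with vehicle, adjusted p = 0.00027; −0.37 on the spike-in scale). Its partner is read here by probes assigned to Psme2b, a near-identical copy of Psme2, and the signal could belong to either. These read 5.63, 5.58 and 5.62 untreated, 6.67 and 6.78 with vehicle and 6.64, 6.66 and 6.68 with 4OHT, the highest difference of the class (1.11 ± 0.09, adjusted p = 0.00015; −0.16 on the spike-in scale). Both genes of the cap thus had narrow, separate groups.

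Psme3, which forms the nuclear cap, was at 3.81, 3.57 and 3.74 untreated, 4.58 and 4.67 with vehicle and 4.45, 4.84 and 4.67 with 4OHT (0.92 ± 0.14 with vehicle, adjusted p = 0.0014; −0.36 on the spike-in scale). Psme4, a large single-chain activator, was the lowest of the class on its brightest probe, at 2.37, 2.49 and 2.52 untreated, 3.32 and 3.25 with vehicle and 3.52, 3.34 and 3.27 with 4OHT (0.83 ± 0.11, adjusted p = 0.00082; −0.45 on the spike-in scale). Its other probe gave 1.11 with vehicle and 1.39 with 4OHT against untreated. Psmf1, which inhibits the core in vitro, was at 1.0, 0.85 and 0.98 untreated, 1.81 and 2.24 with vehicle and 2.04, 2.28 and 2.26 with 4OHT (1.08 ± 0.15, adjusted p = 0.0011; −0.20 on the spike-in scale). In all 3 the treated arrays lay above the untreated ones on the percentile scale.

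The core assembly chaperones among the members work as pairs: Psmg1 with Psmg2 and Psmg3 with Psmg4 guide the alpha ring. Their mRNAs did not move as pairs. Psmg3 was at 2.84, 2.71 and 2.87 untreated, 0.74 and 0.73 with vehicle and −0.12, −0.08 and 0.02 with 4OHT, so the 3 groups were fully separate. With vehicle it was 4.21-fold lower than untreated (−2.07 ± 0.10, adjusted p = 2.2e-05) on the percentile scale and 10.2-fold lower on the spike-in scale (−3.35 ± 0.21, adjusted p = 2e-06). Before scaling, its signals were 2386, 2994 and 2966 untreated, 278 and 339 with vehicle and 192, 171 and 185 with 4OHT. It was lower under every scaling and every left-out array that was run. Psmg3 has a single probe here, so no second probe could be compared.

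Psmg4, the partner of Psmg3, was at 3.22, 2.75 and 3.26 untreated, 3.38 and 3.79 with vehicle and 3.22, 3.42 and 3.54 with 4OHT. Its vehicle arrays lay above the untreated ones, but the difference of 0.51 ± 0.20 did not pass (adjusted p = 0.07; −0.77 and adjusted p = 0.026 on the spike-in scale). Psmg1 was at 6.30, 6.13 and 6.09 untreated, 6.91 and 7.0 with vehicle and 6.70, 6.73 and 6.70 with 4OHT. It was the only Psmg gene called higher (0.78 ± 0.10, adjusted p = 0.00067), with −0.50 on the spike-in scale and −0.05 with quantile normalization. A less bright probe of Psmg1 gave 0.50 on the percentile scale. Psmg2, its partner, was at 3.54, 3.43 and 3.48 untreated, 3.61 and 3.50 with vehicle and 3.16, 2.97 and 2.97 with 4OHT. Untreated and vehicle arrays overlapped (0.07 ± 0.10, adjusted p = 0.58), and on the spike-in scale it was lower by 1.20 (adjusted p = 0.0019).

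**Figure D2:**
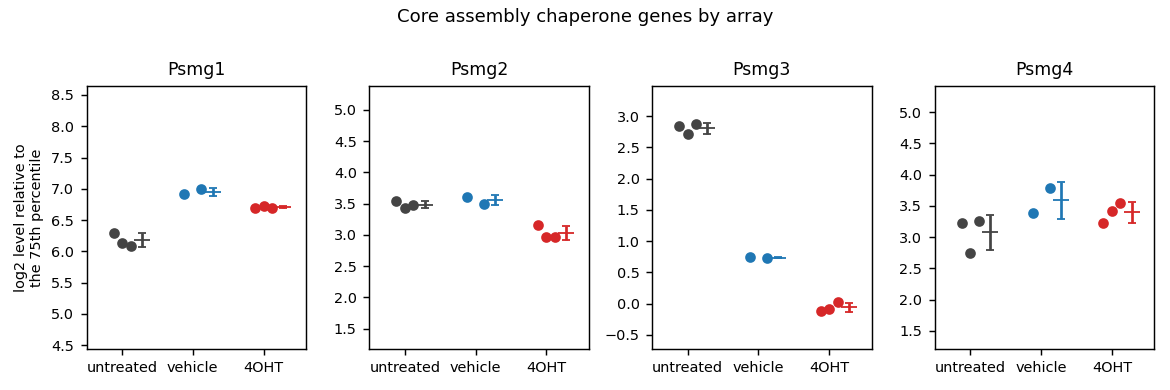
Log2 levels of the 4 core assembly chaperone genes relative to the 75th percentile are plotted by array, with 1 point per array, the group mean ± SD beside the points and the same axis span in each panel. Psmg3 steps down from untreated (2.71 to 2.87) through vehicle (0.73 and 0.74) to 4OHT (−0.12 to 0.02). On this scale Psmg2 is lower only in the 4OHT group (2.97 to 3.16), while on the spike-in scale it is also lower with vehicle (−1.20). Psmg1 is higher in both treated groups on the plotted scale, though not with quantile normalization or on the spike-in scale.

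The promoters of Psmg3 and Psmg1 are shown as the Psmg genes with the lowest and the highest difference, each holding the ETS core. They are RefSeq windows of GRCm38.p6 as above, at chr5:139826845-139827144 (minus strand) and chr16:95990911-95991210 (minus strand), and capitals mark CCGGAAG.
Psmg3: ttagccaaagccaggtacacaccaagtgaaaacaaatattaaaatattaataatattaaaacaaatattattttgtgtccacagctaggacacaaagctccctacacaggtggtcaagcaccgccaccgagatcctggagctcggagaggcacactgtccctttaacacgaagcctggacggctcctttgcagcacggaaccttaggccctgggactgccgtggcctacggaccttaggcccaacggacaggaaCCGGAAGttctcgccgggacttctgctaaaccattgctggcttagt
Psmg1: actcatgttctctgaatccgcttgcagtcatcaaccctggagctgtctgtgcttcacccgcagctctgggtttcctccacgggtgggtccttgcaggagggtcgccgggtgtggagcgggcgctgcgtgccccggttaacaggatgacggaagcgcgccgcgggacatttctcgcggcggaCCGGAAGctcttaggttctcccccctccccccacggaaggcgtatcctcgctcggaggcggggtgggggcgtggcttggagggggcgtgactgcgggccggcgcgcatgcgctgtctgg

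The 2 members that are not subunits had smaller differences. Psmc3ip was at 2.01, 2.06 and 2.0 untreated, 2.44 and 2.35 with vehicle and 2.49, 2.37 and 2.48 with 4OHT (0.37 ± 0.09 with vehicle, adjusted p = 0.011; −0.91 on the spike-in scale; adjusted p = 0.058 without vehicle replicate 1). Psme3ip1 was at 2.99, 2.96 and 2.86 untreated, 3.13 and 2.96 with vehicle and 2.89, 2.89 and 2.87 with 4OHT. Its groups overlapped (0.11 ± 0.10, adjusted p = 0.36; −1.17 on the spike-in scale). Their median of 0.24 lay below that of all features, while that of the subunit classes other than the core chaperones lay between 0.75 and 1.0.

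The scales differ by a constant on each array, so the place of a gene among the proteasome genes is the same on both. Measured as the change from untreated minus that of the median member, Psmg3 was at −2.94 and −3.03 with vehicle and −3.75, −3.74 and −3.64 with 4OHT. Psmg2 was at −0.74 and −0.93 with vehicle and −1.15, −1.37 and −1.36 with 4OHT. Psmd5 was at −0.78 and −0.99, then −1.05, −1.08 and −1.22. These 3 assembly factors were lower than the median member on all 5 treated arrays, and each was lower still on all 3 4OHT arrays than on both vehicle arrays.

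Psmd7 was at −0.99 and −0.60 with vehicle and −0.85, −0.81 and −0.75 with 4OHT, the one true subunit with a departure of this size on every treated array. Psmb6 had a mean of 0.28 with vehicle and 0.25 with 4OHT, and Psmf1 of 0.17 and 0.41. The mean departure over all members, without regard to sign, was 0.06 to 0.07 on untreated arrays and 0.28 to 0.33 on treated ones. The untreated figure is the smaller in part because those arrays are set against their own mean.

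**Figure D3:**
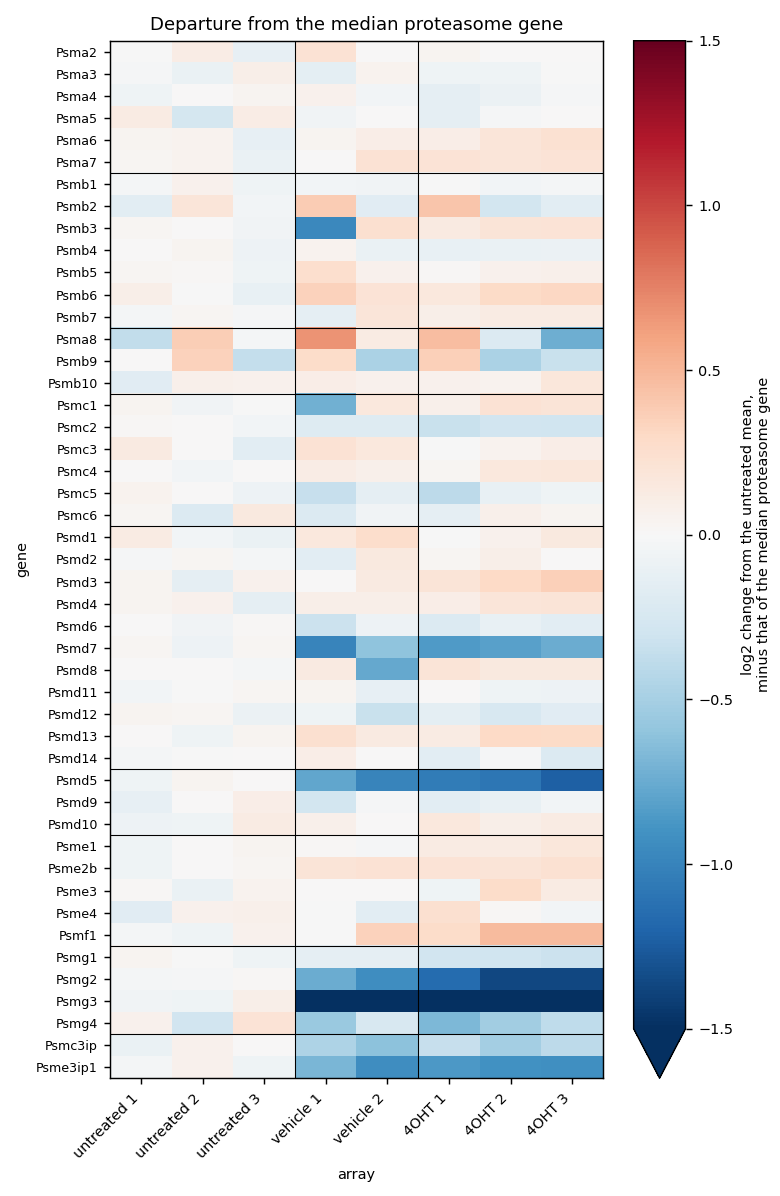
Each row is a proteasome gene and each column an array, and the colour is the log2 change from the untreated mean minus that of the median proteasome gene on the same array, with red above and blue below it and lines between roles and groups. The scale ends at −1.5, beyond which Psmg3 lies on all 5 treated arrays (−2.94 to −3.75), and Psmg2, Psmd5, Psmd7 and Psme3ip1 are blue on the same arrays.

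The comparison of 4OHT with vehicle asks what 4OHT adds after transcription is blocked. By limma 0 members were higher (0.923% of all features; 0 at an unadjusted p under 0.05) and 2 were lower, Psmg3 and Psmg2, both core assembly chaperones (4.26%, against 2.58% of all features). At an unadjusted p under 0.05 there were 5 lower members, the others being Psmd5, Psmg1 and Psmd14. For Psmg1 this rests on the brighter probe (−0.24 ± 0.10), and a less bright one gave −0.06 ± 0.10. The median was −0.06, beside −0.05 for all features, and −0.37 beside −0.36 on the spike-in scale, where 0 members were higher by limma (0.137% of all features; 0 at an unadjusted p under 0.05) and Psmg3 alone was lower (4.14% of all features). Arrays did not overlap for 15 members that were lower (31.9%, against 24.8% of all features) and for 1, Psmd8, that was higher (13.5% of all features). The counts lie near the background, so they do not set the proteasome genes apart from the rest of the array. Over all features 263 were higher and 734 lower. These counts fell to 18 and 48 when only these groups were fitted and to 71 and 142 with scaling to the array median. With the replicate number as a block they were 8 and 12.

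Psmg3 was 1.73-fold lower with 4OHT than with vehicle (−0.79 ± 0.10, adjusted p = 0.013) and 2.14-fold lower on the spike-in scale (−1.10 ± 0.21, adjusted p = 0.025). Its adjusted p ranged from 0.0026 to 0.42 over the alternatives, the highest with scaling to the array median (−0.67), and the call was lost without vehicle replicate 1 (0.071), vehicle replicate 2 (0.053) or 4OHT replicate 2 (0.058), without a filter on dim probes (0.073) and when only these groups were fitted (0.065). Psmg2 was 1.44-fold lower (−0.52 ± 0.10, adjusted p = 0.046), and this call was lost on the spike-in scale (−0.83, adjusted p = 0.079) and when any 1 of the 8 arrays was left out (adjusted p from 0.057 to 0.2). Psmd5, at −0.30 ± 0.10, did not pass (adjusted p = 0.15). For these 3 genes every 4OHT array lay below both vehicle arrays.

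Among the other classes 0 members passed. The medians were −0.08 for the alpha ring, −0.10 for the beta ring, −0.03 for the ATPases, −0.03 for the other regulatory subunits and 0.07 for the activators and the inhibitor. The standard error of a member was 0.12 in the median, and intervals of that width leave room for differences of the size seen in Psmd14 (−0.26 ± 0.10, adjusted p = 0.22). Psmb3 had the highest value (0.48 ± 0.33, adjusted p = 0.5), with its vehicle arrays split as above, and without vehicle replicate 2 it was 1.12 (adjusted p = 0.028). That was the only member called higher in any fit with an array left out.

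**Figure D4:**
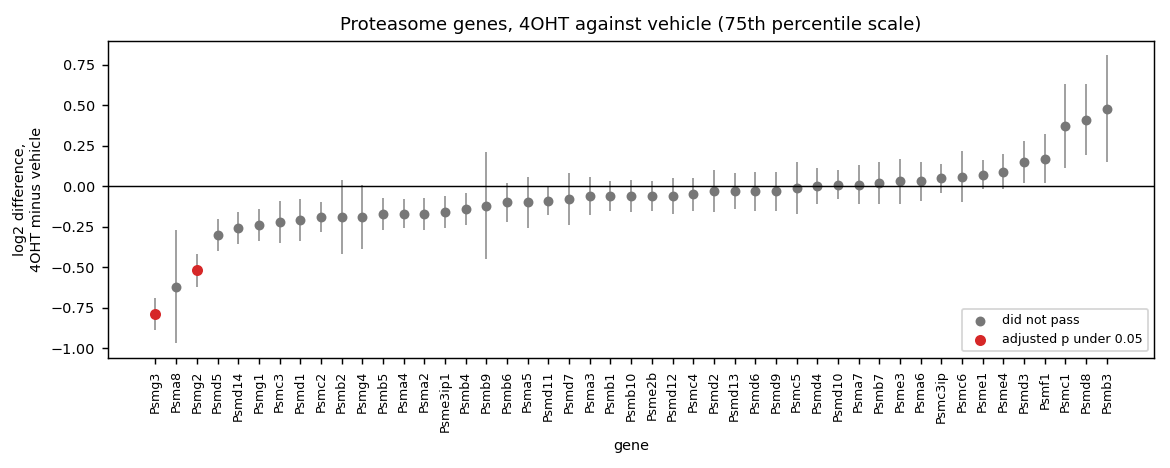
The log2 difference of 4OHT minus vehicle on the percentile scale is plotted for the 47 tested proteasome genes in ascending order, with standard errors of the fit as bars. The called genes Psmg3 (−0.79) and Psmg2 (−0.52) are in red at the low end, most others lie near the median of −0.06, and the highest, Psmb3 (0.48), has a bar that reaches well below its point.

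Against untreated, the 4OHT group gave 39 of 47 members higher on the percentile scale (83%, against 41% of all features) and 3 lower, Psmg3, Psmg2 and Psmd5 (6.38%, against 18.7%). The median was 0.83, beside 0.31 for all features. Of the 22970 features well above background on all 8 arrays, 11894 were higher, with a median of 0.43. With normexp background correction 85.1% of members and 70.3% of all features were higher. With quantile normalization 31.9% of members were higher, beside 30.1% of all features, and both medians were 0.18. On the spike-in scale 0 were higher by limma (0.102% of all features; 0 at an unadjusted p under 0.05) and 44 were lower (93.6%, against 93.4% of all features), with a median of −0.75 beside −1.27. The 3 members that did not pass there were Psmb3 (−0.56), Psmc1 (−0.58) and Psmf1 (−0.34). This comparison shares its untreated arrays with that of vehicle and its 4OHT arrays with the one above.

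Psmg3 was 7.3-fold below untreated with 4OHT (−2.87 ± 0.09, adjusted p = 2.5e-06) and 21.9-fold below on the spike-in scale (−4.45). Psmg2 was lower (−0.45 ± 0.09, adjusted p = 0.0047; −2.03 on the spike-in scale), a call lost with scaling to the array median (−0.30, adjusted p = 0.33). Psmd5 was lower (−0.28 ± 0.09, adjusted p = 0.027; −1.86 on the spike-in scale). That call was lost with scaling to the array median (−0.12, adjusted p = 0.69), without a filter on dim probes (0.079) and without any 1 of the 3 untreated arrays, 4OHT replicate 2 or 4OHT replicate 3 (adjusted p from 0.052 to 0.096). Psmf1 was the highest, at 1.25 ± 0.14 (adjusted p = 0.0003; −0.34 on the spike-in scale). The 5 members that did not pass were Psma8, Psmb9, Psmd7, Psmg4 and Psme3ip1.

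Genes that work with the proteasome were taken as further lists, to be read against all features, of which 41.5% were higher and 15.9% lower on the percentile scale (median 0.40) and 0.112% and 65% on the spike-in scale (median −0.88). Of 11 proteasome partners tested for vehicle against untreated, 8 were higher and 2 lower on the percentile scale (median 0.64), and 6 were lower and 0 higher on the spike-in scale (−0.64). A higher share than among all features was called higher, and a lower share was called lower on the spike-in scale, with no test of either. Sem1, a small regulatory subunit without a Psm symbol, rose by 1.16 ± 0.09 (−0.12 on the spike-in scale), and Pomp, the chaperone that drives pairing of core precursors, by 0.97 ± 0.10 (−0.30). Usp14, a proteasome-bound deubiquitinase, rose by 0.88 ± 0.09 (−0.39) and Ubxn1 by 0.72 ± 0.10 (−0.56). Zfand5, an activator that binds the complex, fell by 3.10 ± 0.09 (−4.38), and was lower again with 4OHT than with vehicle (−0.56 ± 0.09, adjusted p = 0.029; adjusted p = 0.06 on the spike-in scale). Akirin2, which brings proteasomes into the nucleus, fell by 1.39 ± 0.12 (−2.67).

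Of 12 regulators of proteasome genes, 2 were higher and 4 lower (median 0.19, beside 0.40 for all features; −1.09, beside −0.88, and 10 lower, beside 65% of all features, on the spike-in scale). Nfe2l2, an activator of genes with antioxidant response elements, was at 3.90, 3.72 and 3.85 untreated, 1.91 and 2.02 with vehicle and 2.61, 2.52 and 2.5 with 4OHT. It fell by 1.86 ± 0.10 with vehicle (adjusted p = 3.6e-05) and was higher with 4OHT than with vehicle by 0.58 ± 0.10 (adjusted p = 0.032; 0.28 and adjusted p = 0.43 on the spike-in scale). Its 3 groups did not overlap on the percentile scale. For the genes of these further lists, no alternative other than the spike-in scale is given here. Its relative Nfe2l1, which drives proteasome genes when the proteasome is inhibited, did not pass with vehicle (0.19 ± 0.15, adjusted p = 0.32). Nfya, a subunit of the factor that binds the CCAAT box, fell by 1.85 ± 0.12, and Mafk and Mafg, small partners of Nfe2l1 and Nfe2l2, fell by 1.42 ± 0.45 and 0.65 ± 0.11. Foxo4 (1.31 ± 0.18; 0.03 on the spike-in scale) and Stat3 (0.56 ± 0.15; −0.72) rose.

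Among ubiquitin and E1 enzyme genes, Rps27a, a ubiquitin fusion gene, rose by 1.17 ± 0.12, Uba1, an E1 enzyme, by 0.95 ± 0.10 and Ubb, a polyubiquitin gene, by 0.63 ± 0.09, against −0.11, −0.33 and −0.64 on the spike-in scale. Of 12 shuttle and segregase genes, 7 were higher and 2 lower (median 0.68, beside 0.40 for all features and 41.5% of them higher; −0.60, beside −0.88, and 6 lower on the spike-in scale), with the unfoldase Vcp at 1.04 ± 0.13 and its cofactor Ufd1 at 1.04 ± 0.11 (−0.23 and −0.24). Faf2, another Vcp cofactor, fell by 1.38 ± 0.10 with vehicle and was higher with 4OHT than with vehicle (0.74 ± 0.10, adjusted p = 0.017; 0.44 and adjusted p = 0.21 on the spike-in scale), and Ubxn7 fell by 0.94 ± 0.14. Of 12 interferon and antigen processing genes, 8 were tested, 5 higher and 2 lower (median 0.83, beside 0.40 for all features and 41.5% of them higher; −0.45, beside −0.88, and 3 lower on the spike-in scale). Tapbp rose by 1.13 ± 0.11 (−0.15), whereas Irf1 and Irf9, which drive immunoproteasome genes, fell by 3.62 ± 0.15 and 1.66 ± 0.18.

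The labelled cell type was checked against markers. All 8 embryonic stem cell markers were well above background on all 8 arrays, with a summed signal of 292700 to 349800 untreated, 204800 to 266300 with vehicle and 215200 to 222000 with 4OHT. Of 10 feeder fibroblast markers 5 were so, with sums of 936 to 1791, 819 to 877 and 777 to 1241, and Lum and Postn were so on no array. Primitive endoderm markers reached this on all arrays in 2 of 7 cases (sums of 250 to 381, 58.9 to 84.7 and 60.6 to 76.7) and trophoblast markers in 3 of 6 (1101 to 1442, 180 to 217 and 144 to 197, Elf5 on no array). Blood markers did in 4 of the 5 on the arrays (3804 to 5254, 2957 to 4121 and 3489 to 3768). Markers of spermatocytes, which use Psma8, did in 3 of 5 (653 to 1512, 785 to 1133 and 562 to 1163), and those of cortical thymic epithelium, which uses Psmb11, in 3 of 4, with Foxn1 on no array (16650 to 20210, 12730 to 16180 and 13150 to 15500). Detection of some listed genes does not show that a cell type was present, and any part of such cells in the proteasome values was not tested.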

How the data were processed

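RNA of 8 cultures was hybridised to 8 single-colour Agilent arrays. The deposited intensity of a spot is the background-subtracted processed signal of Feature Extraction 11.0.1.1, per the file headers. The labels name Cy5, while the deposited files hold the green channel. The deposited value table differed from these intensities by a relative 0.005 at most. Column medians of the table are 25.0, 50.8 and 29.3 untreated, 14.1 and 16.3 with vehicle and 15.8, 13.3 and 14.4 with 4OHT, and its scale is linear with no centring.

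Outlier-marked and control spots were left out, spots of a probe were averaged as log2 values, and the log2 of the array's 75th percentile over 59305 non-control spots was subtracted. No spot was saturated (0). Probes were kept where all arrays of 1 or more groups were well above background (33013 of 55681), and a gene is its brightest kept probe, which gave 28493 features. The 50 members have 62 probes, of which 58 were kept. No member's kept probes differed by more than 1 in log2 difference. Accessions were named through RefSeq GRCm38.p6, whereas the headers name mm9. The spike-in scale uses 8 of 10 E1A probes. Groups were compared with limma 3.58.1 (R 4.3.3, lmFit and eBayes, 1 fit of 8 arrays, 5 residual degrees of freedom, two-sided), checked on simulated data. P-values measure the spread between these arrays, and their number limits the precision. Alternatives were 3 scalings, background correction, 2 filters, the mean of probes, robust eBayes, a fit of 2 groups, a replicate block, the value table and each array left out.

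Members and lists were chosen with earlier results of these data known. Named are the highest and lowest member of each role for vehicle against untreated, every member called for 4OHT against vehicle, all alternative core, activator, inhibitor and assembly genes, members whose probes differ by more than 1, and up to 4 called genes per list and direction. Genes outside this rule appear where a count of 5 or fewer names them. Some genes of the ubiquitin list, and its counts, are not reported here.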

Additional observations from a re-analysis of the deposited data

How the results depend on the processing

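For vehicle against untreated, 37 members were higher, 1 lower and the median was 0.89. Quantile normalization gave 15, 3 and 0.14 (all features 26.1% higher, 17.3% lower, median 0.21), normexp 2 lower and a median of 0.67 (80.9% higher, all features 68.2% and 0.54), and the spike-in scale 0, 12 and −0.39 (all features −0.88). For 4OHT against untreated (39, 3 and 0.83), quantile normalization gave 15, 7 and 0.18 (31.9% higher and 14.9% lower, all features 30.1%, 19.4% and 0.18), normexp a median of 0.66 (all features 0.50), scaling to the array median 1 lower and 0.99 (all features 0.46), and the spike-in scale 0, 44 and −0.75 (all features −1.27). For 4OHT against vehicle (0, 2 and −0.06), lower members were 1 with quantile normalization or the spike-in scale and 0 with scaling to the array median, no filter on dim probes or only these groups fitted. The median was 0.06 with scaling to the array median and −0.37 on the spike-in scale. The cause of these changes was not tested, though fitting fewer arrays leaves fewer degrees of freedom. Leaving out each array gave 36 to 38 higher and 1 to 1 lower for vehicle against untreated (medians 0.87 to 0.95), 38 to 39 and 2 to 3 for 4OHT against untreated (0.83 to 0.89), and 0 to 1 and 0 to 1 for 4OHT against vehicle, with 0 lower without vehicle replicate 1, vehicle replicate 2 or 4OHT replicate 2.

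The replicate number as a block gave 0 lower members for 4OHT against vehicle, with Psmg3 at −0.83 (adjusted p = 0.078) and Psmg2 at −0.51 (adjusted p = 0.13). It also ended the call of Psmd5 for 4OHT against untreated (−0.28, adjusted p = 0.056), and changed no other call of a named member. Deviations of same-numbered arrays correlated from −0.19 to 0.36, the highest between vehicle replicate 1 and 4OHT replicate 1. Those of different-numbered arrays correlated from −0.36 to 0.23. The 2 vehicle arrays deviate from their mean as mirror images, so these values cannot decide whether the numbers pair the arrays.

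Directions of named genes also turned. With vehicle on the spike-in scale, Psma2 was at −0.25, Psma3 −0.42, Psmb6 −0.09, Psmb10 −0.28, Psmc3 −0.17, Psmd1 −0.16, Psmd7 −1.16, Psmd5 −1.25, Psmd9 −0.51, Psmd10 −0.32, Psme1 −0.37, Psme2b −0.16, Psme3 −0.36, Psme4 −0.45, Psmf1 −0.20, Psmg1 −0.50, Psmg2 −1.20, Psmg4 −0.77, Psmc3ip −0.91 and Psme3ip1 −1.17. With 4OHT against untreated they were at −0.73 for Psma2, −0.78 for Psma3, −0.56 for Psmb3, −0.49 for Psmb6, −0.90 for Psma8, −0.89 for Psmb9, −0.65 for Psmb10, −0.58 for Psmc1, −0.70 for Psmc3, −0.68 for Psmd1, −1.55 for Psmd7, −0.85 for Psmd9, −0.62 for Psmd10, −0.61 for Psme1, −0.53 for Psme2b, −0.64 for Psme3, −0.67 for Psme4, −0.34 for Psmf1, −1.05 for Psmg1, −1.27 for Psmg4 and −1.16 for Psmc3ip. Quantile normalization turned Psma2 (−0.03), Psma3 (−0.07), Psmd7 (−0.46), Psmd5 (−0.31) and Psmg1 (−0.05) for vehicle, and Psma2 (−0.08), Psma3 (−0.05), Psmc3 (−0.01), Psmd7 (−0.52) and Psmg1 (−0.22) for 4OHT against untreated. Normexp turned Psmd5 for vehicle (−0.25). For vehicle against untreated, quantile normalization also ended the calls of Psmb6 (0.14), Psmc3 (0.07), Psmd1 (0.24) and Psmc3ip (0.19) without turning them.

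Over all features, the share of calls that were higher was 72.3% for vehicle against untreated (84.8% with normexp, 60.2% with quantile normalization, 0.172% on the spike-in scale). It was 68.6% for 4OHT against untreated (84.4%, 60.8% and 0.109%) and 26.4% for 4OHT against vehicle (3.2% on the spike-in scale). Signal over background limits Psma8, Psmb8 and Psmb11 most.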
